A study of Mus musculus with 39 samples.

Results

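The step of muscle regeneration between days 3 and 7 after injury was followed in whole tibialis anterior muscle, a muscle of the lower hind leg, of wild-type (WT) mice. Its members are all genes with at least 10 counts in at least 3 of 6 libraries, 3 from day 7 and 3 from day 3, which took 13848 of the 55011 gene symbols counted in the series of 39 mouse libraries. Of these genes, 13657 had a single position in the annotation and 12550 coded for protein. Both groups were WT, had been given diphtheria toxin into the peritoneum and had been injured with cardiotoxin, a snake venom peptide that kills muscle fibres and spares the resident stem cells. WT mice were the controls of Tcrd-DTR mice (DTR), in which γδ T cells carry the diphtheria toxin receptor, and both genotypes received the toxin. DTR muscle at day 7 (2 libraries) and day 3 (3 libraries), and WT muscle at day 1 and day 14 (3 libraries each), are given below only where they are named. The labels describe the replicates as independent biological ones, and the age and sex of the mice and the interval between toxin and injury are not stated there. Each library was made from 2 ng of whole-muscle RNA, so every level is that of all cells of the tissue together.

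Regeneration of a cardiotoxin-injured muscle runs in stages. Blood monocytes enter, become macrophages and take up the dead fibres, while satellite cells, the stem cells of muscle, leave rest, divide as myoblasts, leave the cell cycle and fuse into new fibres. New fibres first make embryonic and neonatal forms of the contractile proteins and carry nuclei in their centre, and adult forms, mitochondria and nerve contacts follow. Day 3 is known as a time of dividing cells and abundant macrophages, and day 7 as a time of young fibres.

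The 6 libraries held 7031474, 9309783 and 7573306 counts at day 7 and 6502310, 4169533 and 3579023 counts at day 3. The defining genes of skeletal muscle were present in every library, and the 6 genes of that list summed to 182057, 158124 and 134835 CPM in day 7 muscle, against 15142, 31485 and 51518 CPM in day 3 muscle. CPM here are read counts scaled to library size (CPM) with TMM, which equalises the bulk of genes between libraries, and ± follows a mean CPM as its SD over 3 libraries and a log2 change as its standard error. The scaling matters for this step, because the 50 most counted genes took 45.0 to 46.4% of all counts at day 7 and 18.5 to 25.9% at day 3. With library totals alone, the median log2 change of all genes lay at −0.82 rather than −0.02, a shift of −0.80, so small rises with TMM lie at or below 0 on that scale. Of 2966 genes that rose with TMM, 1130 also rose with library totals and 445 lay lower, none of them past the threshold, and no gene that fell lay higher.

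A few libraries stood apart. Olfactory and vomeronasal receptor genes summed to 267, 544 and 1385 CPM of the unscaled library total at day 7 and to 316, 1527 and 799 at day 3, and day 7 replicate 3 had counts in 34392 genes, against 22417 and 27437 in the other day 7 libraries. Muscle genes also differed widely among the day 3 libraries, with the lowest level in replicate 1 and the highest in replicate 3. Without day 7 replicate 3 and day 3 replicate 2, an alternative chosen after the data were seen, 2274 genes rose and 2424 fell.

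Of 13848 genes, 6102 (44.1%) changed between day 7 and day 3 at an adjusted p under 0.05 in edgeR's quasi-likelihood test. Of all genes tested, 2966 (21.4%) rose and 3136 (22.6%) fell, and 700 and 986 of these changed at least 4-fold. Every day 7 library lay above every day 3 library for 26.6% of genes and below for 28.8%. With so many genes changed, the count of any list is to be read against these shares. Among the members, 260 reached 10 counts only in day 7 libraries and 182 only in day 3 libraries, so their membership itself rested on a difference.

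The 12 largest rises, chosen among genes with at least 20 CPM in the higher group and no overlap between the days, included neonatal and embryonic forms of contractile genes. Myh8, the neonatal myosin heavy chain (chromosome 11, 67277124 to 67308634 on mm10), had 857, 777 and 273 CPM in day 7 muscle, against 2.31, 5.63 and 8.54 CPM in day 3 muscle. All day 7 libraries lay far above all day 3 libraries, and replicate 3 was the lowest of day 7 (log2 change 6.94 ± 0.61, adjusted p = 2.21e-05, 122-fold higher). Sln, which codes for sarcolipin, a small inhibitor of the calcium pump (chromosome 9, 53850164 to 53854560), had 599, 363 and 323 CPM in day 7 muscle, against 10.2, 5.08 and 18 CPM in day 3 muscle, a rise of 39.2-fold (log2 change 5.29 ± 0.43, adjusted p = 4.77e-06). Actc1, the cardiac actin used by embryonic muscle (chromosome 2, 114047282 to 114053548), had 5234, 3584 and 3106 CPM in day 7 muscle, against 121, 148 and 264 CPM in day 3 muscle and was 22.4-fold higher (log2 change 4.49 ± 0.38, adjusted p = 2.53e-06). Further members of these 12 genes were Tceal7 (45.9-fold), which is known as an inhibitor of myoblast growth, Kcne1l, a potassium channel subunit (43.9-fold), Atp1b4, a muscle protein of the sodium pump β-chain family that lies in the inner nuclear membrane (38.5-fold), Itm2a (17.8-fold), Thrsp (18.8-fold), Inha, the α chain of inhibin (17.9-fold), and the non-coding RNAs H19 (16.6-fold) and Foxo6os (16.8-fold). Myl2, the slow and cardiac myosin light chain, had 4.86, 33.9 and 21.5 CPM in day 7 muscle, against 1.65, 0.908 and 0.923 CPM in day 3 muscle. Its day 7 libraries differed among themselves, yet each lay above day 3 (log2 change 4.03 ± 0.65, adjusted p = 0.000355).

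The 12 largest falls, chosen in the same way, were mostly of genes known from myeloid cells. Gal, which codes for the neuropeptide galanin (chromosome 19, 3409915 to 3414544), had 0.607, 0.570 and 0.992 CPM in day 7 muscle, against 109, 117 and 85.4 CPM in day 3 muscle. Its libraries were close to one another within each day (log2 change −7.13 ± 0.31, adjusted p = 9.1e-08, 139.8-fold lower). Cd5l, a macrophage protein that binds lipids (chromosome 3, 87357881 to 87371073), was at 0, 0 and 0.992 CPM in day 7 muscle, against 53.8, 35.4 and 20.8 CPM in day 3 muscle. The other genes of the 12 largest falls were the chemokine receptor Ccr1, the kinase Btk of B cells and myeloid cells, the protease Adam8, the macrophage lectin Chil3, the membrane protein Ms4a6c, the Toll-like receptor partner Cd180, the iron-carrier scavenger Lcn2, the clotting factor F7, the DNA sensor Tlr9 and the monocyte attractant Ccl2. Gal, Cd5l, Ccr1, Lcn2 and Tlr9 reached 10 counts only in day 3 libraries, as Kcne1l and Inha did only in day 7 libraries, so these 7 entered the test through the group in which they were high. The folds of the other 10 falls ran from 32.4-fold (Ccl2) to 56.8-fold (Ccr1). Fewer cells of a type and less RNA per cell cannot be told apart in whole tissue, here and in all that follows.

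**Figure D1:**
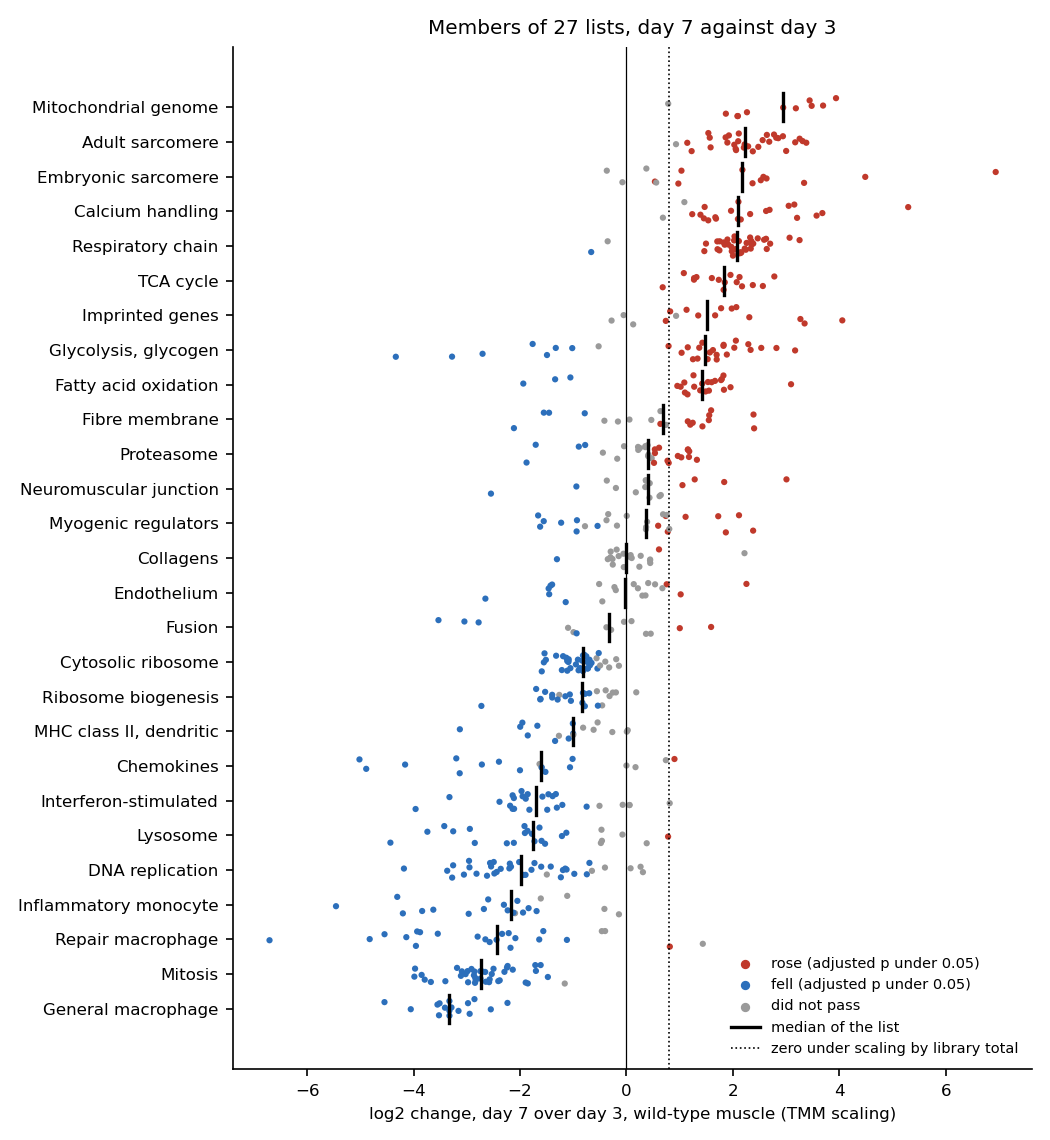
Log2 change of each list member between day 7 and day 3 in WT muscle (x axis, TMM scaling), with one row per list; points are genes, coloured by whether they rose, fell or did not pass, black bars are list medians, and the dotted line marks where 0 lies under scaling by library total. Medians ran from 2.94 in genes of the mitochondrial genome to −3.33 in general macrophage genes, and collagens centred near 0.

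3 promoters of the muscle genes that rose are shown because muscle promoters are known for short elements bound by muscle regulators: the CArG box of serum response factor, the MEF2 element and the E-box CAGCTG of the MyoD family. The sequences are the 130 bases before the start site (RefSeq, GRCm38.p6), 5′ to 3′, with CArG, MEF2 and E-box letters in capitals. Acta1 lies at chr8:123894776-123894905 (minus strand), Myh8 at chr11:67276994-67277123 (plus strand) and Pgam2 at chr11:5803797-5803926 (minus strand).
Acta1: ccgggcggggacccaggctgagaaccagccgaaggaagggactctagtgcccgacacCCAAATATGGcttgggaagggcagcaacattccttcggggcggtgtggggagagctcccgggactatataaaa
Myh8: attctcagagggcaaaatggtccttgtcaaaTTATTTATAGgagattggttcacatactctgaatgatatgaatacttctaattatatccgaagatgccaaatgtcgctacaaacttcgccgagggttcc
Pgam2: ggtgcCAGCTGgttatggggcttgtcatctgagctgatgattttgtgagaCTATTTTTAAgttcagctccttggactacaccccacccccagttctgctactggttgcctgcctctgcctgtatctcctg
The Acta1 stretch held a CArG match, the Myh8 stretch a MEF2 match, and the Pgam2 stretch an E-box and a MEF2 match. In windows of 300 bases (250 before the start, 50 after, both strands), the E-box was present in 9 of 21 adult sarcomere promoters found (42.9%), against 16.1% of all 27025 promoters. The shares were 23.8% against 3.26% for MEF2 and 19.05% against 1.57% for CArG. In 15 embryonic sarcomere promoters the E-box was in 26.7%, MEF2 in 6.67% and CArG in 6.67%. The E-box letters were as frequent in 12 promoters of general macrophage genes (41.7%), all of which fell, so that share is not particular to muscle genes. Of the 31 tested adult sarcomere genes, 21 had a promoter in the table, and a match is a description of letters.

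Genes of the sarcomere, the contractile unit of the fibre, rose together. Of 31 adult fast sarcomere genes tested, 30 rose and none fell (median log2 change 2.22; 1.46 with library totals), and 22 rose without the pair of libraries named above. They summed to 359716, 331373 and 292365 CPM in day 7 muscle, against 25846, 56849 and 96195 CPM in day 3 muscle. All day 7 libraries lay above all day 3 libraries, of which replicate 1 was the lowest and replicate 3 the highest. Acta1, the skeletal actin (chromosome 8, 123891769 to 123894751), had 120113, 100798 and 73171 CPM in day 7 muscle, against 7663, 14554 and 25036 CPM in day 3 muscle (log2 change 2.64 ± 0.55, adjusted p = 0.00162). Ckm, the muscle creatine kinase, had 26495, 27333 and 31378 CPM in day 7 muscle, against 2727, 6696 and 11131 CPM in day 3 muscle (log2 change 2.05 ± 0.49, adjusted p = 0.00399). In both, every day 7 library lay above every day 3 library, and replicate 1 was the lowest of day 3. Without the pair of libraries named above, neither Acta1 (2.76) nor Ckm (1.96) passed, and Ttn did not pass either (1.10). Mylpf, the fast regulatory light chain (log2 change 3.31 ± 0.51, adjusted p = 0.000185), Actn2, which links actin at the Z-disc (log2 change 3.00 ± 0.37, adjusted p = 3.69e-05), and Myom3, an M-band protein (log2 change 3.17 ± 0.33, adjusted p = 1.24e-05), were among the clearest. Ttn, the giant spring protein titin, passed narrowly (log2 change 1.14 ± 0.41, adjusted p = 0.0362), with 9534, 8522 and 10159.8 CPM in day 7 muscle, against 1933, 4375 and 6473 CPM in day 3 muscle.

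Most embryonic and slow forms rose as well, with 11 of 15 tested genes higher and none lower with TMM (median 2.18). With library totals 7 rose and 1 fell (median 1.38). The list also holds the γ chain of the acetylcholine receptor, Chrng. Tnni1, the slow troponin I used by young fibres (chromosome 1, 135779434 to 135810989), had 754, 592 and 405 CPM in day 7 muscle, against 50.8, 54.5 and 68.3 CPM in day 3 muscle (log2 change 3.34 ± 0.26, adjusted p = 1.43e-06), and the groups did not overlap. Myl4, the embryonic light chain (chromosome 11, 104550663 to 104595753), had 488, 414 and 387 CPM in day 7 muscle, against 62.1, 68.6 and 86.3 CPM in day 3 muscle (log2 change 2.57 ± 0.21, adjusted p = 1.79e-06). The slow troponins Tnnc1 and Tnnt1 were 4.53-fold and 5.75-fold higher. Myh3, the embryonic myosin heavy chain, had 329, 274 and 126 CPM in day 7 muscle, against 35.3, 38.9 and 43.6 CPM in day 3 muscle (log2 change 2.63 ± 0.31, adjusted p = 2.72e-05). Tnnt2, the cardiac troponin T, rose by only 0.53 with TMM (adjusted p = 0.034) and lay at −0.28 with library totals.

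Among myosin heavy chains, the composition differed as well as the amount. As a share of the 6 isoforms' counts per transcript length, Myh8 made up 2.57, 2.87 and 1.40% at day 7, against 0.142, 0.130 and 0.120% at day 3. The adult fast form Myh1 (IIX) took 37.7, 40.7 and 31.7% at day 7, against 26.6, 18.5 and 22.9% at day 3. The share of Myh4 (IIB), the fastest adult form, was 56.5, 52.2 and 63.6% at day 7, against 68.5, 79.8 and 74.2% at day 3. For these 3 isoforms the days did not overlap. The shares are given as a description, without a test. Myh3 overlapped, with 1.01, 1.03 and 0.659% at day 7, against 2.23, 0.918 and 0.623% at day 3. The slow form Myh7, given for its share only, overlapped too, with 0.0024, 0.0759 and 0.0476% at day 7, against 0.174, 0.0457 and 0.0128% at day 3. At day 14 Myh8 was at 0.121, 0.0956 and 0.0992%, and Myh4 at 75.2, 71.4 and 73.6%. These genes are near-identical over long stretches, and how shared reads were counted is not stated in the labels.

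**Figure D2:**
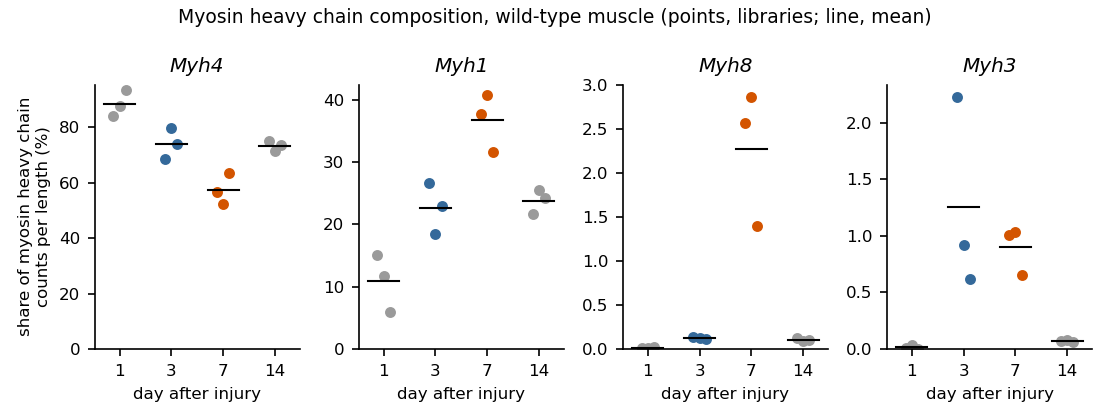
Share of Myh4, Myh1, Myh8 and Myh3 among the counts per transcript length of 6 myosin heavy chain genes (y axis, percent) in WT muscle at days 1, 3, 7 and 14 after injury; points are libraries and lines are means of 3. Myh8 reached 1.40 to 2.87% at day 7 and stayed at or below 0.142% on the other days.

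Calcium handling genes, which couple the nerve impulse to contraction, followed the sarcomere, with 20 of 22 tested genes higher and none lower (median 2.10). Casq2, the cardiac-type calsequestrin that stores calcium and is used by young and slow fibres (chromosome 3, 102086415 to 102146514), had 739.9, 527 and 353 CPM in day 7 muscle, against 56.5, 52.3 and 66.9 CPM in day 3 muscle (log2 change 3.21 ± 0.27, adjusted p = 2.48e-06). Its levels on the outer days were 19.2 CPM at day 1 and 127 CPM at day 14 (means of 3), so day 7 held the highest mean of the 4 days. Casq1, the fast-fibre form, was 11.9-fold higher (adjusted p = 0.000115), and Jph1, which ties the calcium store to the cell membrane, 8.27-fold higher. Mrln, which codes for the micropeptide myoregulin that slows the calcium pump, was 6.44-fold higher. Atp2a1, the fast calcium pump, had 37723, 33321 and 41453 CPM in day 7 muscle, against 3303, 8549 and 14318 CPM in day 3 muscle (log2 change 2.10 ± 0.51, adjusted p = 0.00453), and Ryr1, the calcium release channel, was 2.74-fold higher (adjusted p = 0.0131).

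At the neuromuscular junction, the contact between nerve and fibre, 4 of 16 tested genes rose and 2 fell with TMM (median 0.40). With library totals 2 rose and 6 fell (median −0.42), so the direction of this list depends on the scaling. The acetylcholine receptor exchanges its embryonic γ chain for the adult ε chain as junctions mature. Chrne, the ε chain, had 26.1, 47.6 and 29.7 CPM in day 7 muscle, against 0.110, 5.63 and 8.31 CPM in day 3 muscle (log2 change 3.01 ± 0.81, adjusted p = 0.0151), and the days did not overlap, but the call was lost without the pair of libraries named above (3.36). Chrng, the γ chain, had 29.95, 14.7 and 17.2 CPM at day 7 and 25.9, 26.3 and 27.2 CPM at day 3 and did not pass (adjusted p = 0.317). The count ratio of Chrne to Chrng was 0.872, 3.24 and 1.73 at day 7, against 0.00424, 0.214 and 0.305 at day 3. Chrnb1, the β chain, rose (log2 change 1.84 ± 0.24, adjusted p = 5.62e-05), and Chrnd, the δ chain, fell (log2 change −0.94 ± 0.22, adjusted p = 0.00403).

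Of 20 tested genes of the fibre membrane, 10 rose and 4 fell with TMM (median 0.69). With library totals 6 rose and 6 fell (median −0.10), so the direction of this list depends on the scaling. Among the members that rose was Dmd, dystrophin, which ties the cytoskeleton to the membrane (log2 change 1.43 ± 0.26, adjusted p = 0.000666). The members that fell with TMM were the membrane repair proteins Anxa1, Anxa2 and Anxa5 and the dystrophin relative Utrn. Anxa2 (chromosome 9, 69453620 to 69491795) had 342, 409 and 274 CPM in day 7 muscle, against 1816, 1304 and 1319 CPM in day 3 muscle and was 4.33-fold lower (adjusted p = 2.69e-05). Annexins are also made by macrophages, whose genes fell in the same samples, and their part in this was not tested.

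Genes of oxidative energy supply rose almost without exception. Of 40 nuclear genes of the respiratory chain and ATP synthase, 38 rose and 1 fell (median 2.08; 1.28 with library totals, where 38 rose). They summed to 56795, 56598 and 49063 CPM in day 7 muscle, against 10979, 12768 and 16943 CPM in day 3 muscle. Uqcrfs1, the iron-sulphur protein of complex III (chromosome 13, 30540308 to 30545362), had 2235, 1994 and 1731 CPM in day 7 muscle, against 244, 289.6 and 385 CPM in day 3 muscle (log2 change 2.6995 ± 0.26, adjusted p = 6.37e-06). Cycs, cytochrome c, was 6.21-fold higher and Ndufv2, a complex I subunit, 6-fold higher. All 16 tested genes of the tricarboxylic acid cycle rose (median 1.84), among them Sucla2 (log2 change 2.78 ± 0.28, adjusted p = 7.64e-06) and the pyruvate dehydrogenase subunits Pdhb (5.91-fold) and Dlat (4.50-fold).

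Of 11 tested genes of the mitochondrial genome, 10 rose and none fell (median 2.94). The genes listed took 7.57, 6.62 and 6.82% of all counts at day 7, against 1.96, 2.74 and 2.699% at day 3. Cytochrome b of complex III, mt-Cytb, had 23344, 17556 and 14352 CPM in day 7 muscle, against 3059, 3703 and 4741 CPM in day 3 muscle (log2 change 2.26 ± 0.37, adjusted p = 0.0003). The gene mt-Nd6, a complex I subunit and the only protein gene on its strand, had 1081, 1082 and 842 CPM in day 7 muscle, against 55, 119 and 96.5 CPM in day 3 muscle (log2 change 3.48 ± 0.29, adjusted p = 2.37e-06). Counts of mt-Co2, mt-Co3 and mt-Atp6 are uncertain, because near-identical nuclear copies can share their reads. The counts of mt-Nd6 are uncertain too. Whether strand was used is not stated, so reads of the opposite strand could be among them. Genes of mitochondrial transcription, translation and import were higher in 12 of 20 cases and lower in 1 (median 0.88, or 0.08 with library totals). Tfam, the packaging factor of mitochondrial DNA, was 2.45-fold higher (adjusted p = 0.000178), whereas Nrf1, a regulator of respiratory genes, fell (log2 change −1.16 ± 0.27, adjusted p = 0.00401).

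Fatty acid oxidation genes rose in 20 of 23 cases and fell in 3 with TMM, and 12 rose and 3 fell with library totals. Fabp3, the fatty acid carrier of muscle (chromosome 4, 130308595 to 130315463), had 554, 696 and 580.3 CPM in day 7 muscle, against 47.2, 65.2 and 103 CPM in day 3 muscle (log2 change 3.09 ± 0.28, adjusted p = 3.61e-06), and the days did not overlap. The 3 that fell were Cpt1a, the liver form of carnitine palmitoyltransferase (3.83-fold), and the fatty acid uptake genes Cd36 (2.08-fold) and Lpl (2.53-fold), which macrophages also express. In glycolysis and glycogen use, 22 of 30 tested genes rose and 7 fell with TMM. With library totals 15 rose and 8 fell, and 14 rose and 5 fell without the pair of libraries named above. Pgam2, the muscle phosphoglycerate mutase (chromosome 11, 5801640 to 5803733), had 9197, 8283 and 7089 CPM in day 7 muscle, against 344, 872 and 1519 CPM in day 3 muscle (log2 change 3.17 ± 0.47, adjusted p = 0.000146), and Eno3, the muscle enolase, 16391, 13489.5 and 12032 CPM in day 7 muscle, against 850.5, 1952 and 3143 CPM in day 3 muscle (log2 change 2.82 ± 0.46, adjusted p = 0.000277). In both genes day 3 replicate 1 was the lowest library and the days did not overlap. Slc2a4, the insulin-regulated glucose transporter, was 2.22-fold higher (adjusted p = 0.00912).

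In 14 pairs of genes that code for alternative forms of a protein or subunit, the count ratio of the first form to the second was higher in all 3 day 7 libraries than in any day 3 library. The pairs were chosen after their values were seen, so this shared direction was fixed by the choice. In 10 pairs the first is the form of skeletal muscle, 1 pair is the adult and embryonic chain of the acetylcholine receptor, and 3 pairs set a standard proteasome subunit against its interferon-inducible one. The ratio of Pgam2 to Pgam1, the form of dividing and non-muscle cells, was 1894, 1659 and 1340.5 at day 7, against 8.15, 30.6 and 54.4 at day 3. Pgam1 itself fell (log2 change −2.70 ± 0.29, adjusted p = 1.23e-05). For Cox8b over Cox8a, subunit 8 of cytochrome c oxidase, the ratio was 3.86, 4.25 and 4.25 at day 7, against 0.210, 0.373 and 0.573 at day 3. Cox6a2 rose (2.26) while Cox6a1 fell (−0.66), and Pfkm, the muscle phosphofructokinase, rose (1.89) while Pfkl (−1.76) and Pfkp (−1.33) fell. Cpt1b, the muscle carnitine palmitoyltransferase, rose (1.79) as Cpt1a fell (−1.94). Hk3, a hexokinase of myeloid cells, fell 20.2-fold (log2 change −4.33 ± 0.61, adjusted p = 0.000424), and Hk2, the muscle form, which was chosen after its values were seen, rose by 0.79 with TMM and lay at 0 with library totals. Ratios within a library do not depend on the scaling.

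**Figure D3:**
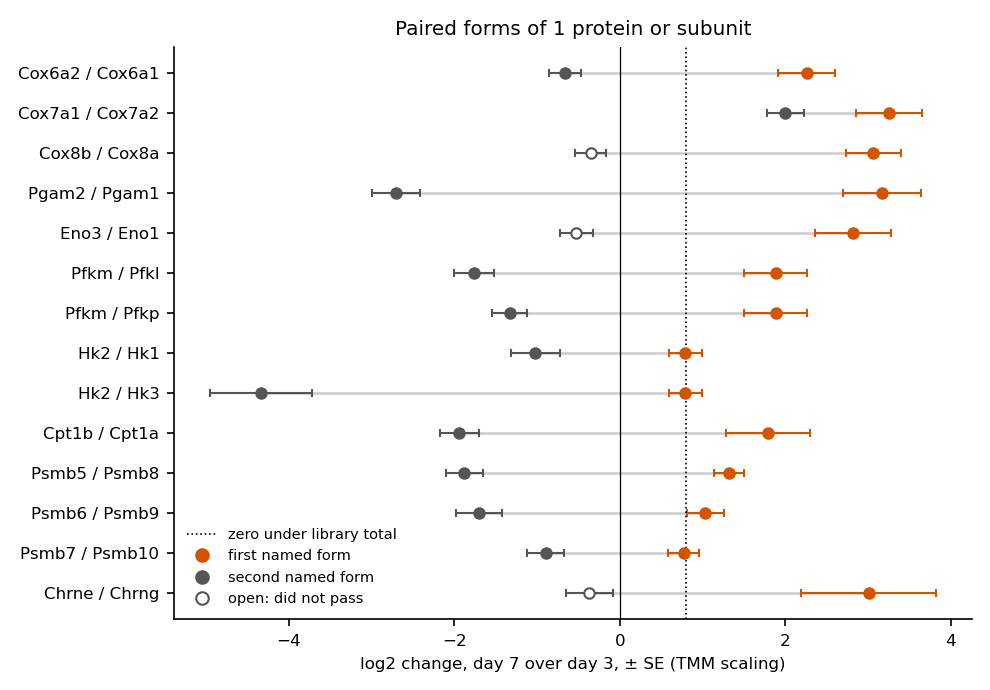
Log2 change between day 7 and day 3 in WT muscle (x axis, ± SE, TMM scaling) of 14 pairs of alternative forms; orange is the first named form, grey the second, open symbols did not pass, and the dotted line marks 0 under scaling by library total. The pairs were chosen after their values were seen, which fixed the shared direction, and Pgam2 and Pgam1 lay at 3.17 and −2.70.

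The cell cycle genes fell in nearly all cases. Of 40 mitosis genes 39 fell and none rose (median −2.72), and every day 7 library lay below every day 3 library for all 40. They summed to 261, 302 and 225 CPM in day 7 muscle, against 1925, 1663 and 1379 CPM in day 3 muscle, and at day 1 to 210.4, 224 and 195 CPM, so that day 3 held the highest level of the 4 days. Mki67, the proliferation antigen (chromosome 7, 135689784 to 135716361), had 7.89, 3.71 and 5.62 CPM in day 7 muscle, against 97.5, 76.4 and 60.5 CPM in day 3 muscle (log2 change −3.79 ± 0.30, adjusted p = 1.67e-06). Top2a, which untangles DNA before division (chromosome 11, 98992943 to 99024189), had 10.9, 17.3 and 11.2 CPM in day 7 muscle, against 131, 108 and 99.7 CPM in day 3 muscle (log2 change −3.09 ± 0.24, adjusted p = 1.42e-06). Cdk1, the kinase that starts mitosis (chromosome 10, 69335146 to 69352938), had 13.4, 17.5 and 8.26 CPM in day 7 muscle, against 91.2, 84.2 and 59.3 CPM in day 3 muscle (log2 change −2.58 ± 0.29, adjusted p = 1.48e-05). Plk1, a mitotic kinase, fell 15.8-fold, and the cyclins Ccnb1 and Ccna2 fell 14.4-fold and 10.6-fold.

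3 of these promoters are shown because genes of late division share known elements, the cell cycle homology region (CHR, TTTGAA) and CCAAT boxes bound by NF-Y. The stretches are the 130 bases before the start site (RefSeq, GRCm38.p6), with both motifs in capitals on either strand. Cdk1 lies at chr10:69352913-69353042 (minus strand), Ccnb2 at chr9:70421555-70421684 (minus strand) and Top2a at chr11:99024190-99024319 (minus strand).
Cdk1: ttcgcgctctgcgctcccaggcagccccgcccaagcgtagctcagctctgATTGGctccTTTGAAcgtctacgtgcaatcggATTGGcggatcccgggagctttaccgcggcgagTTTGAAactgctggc
Ccnb2: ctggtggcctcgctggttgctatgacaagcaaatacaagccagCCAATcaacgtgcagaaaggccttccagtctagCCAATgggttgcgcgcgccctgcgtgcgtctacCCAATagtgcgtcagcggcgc
Top2a: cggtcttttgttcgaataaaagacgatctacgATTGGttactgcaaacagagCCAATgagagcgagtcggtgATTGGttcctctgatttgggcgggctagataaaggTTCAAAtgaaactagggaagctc
Ccnb2, a mitotic cyclin named after its values were seen, fell like the others (log2 change −2.71 ± 0.47, adjusted p = 0.000999). Cdk1 held 2 CHR and 2 CCAAT matches, Ccnb2 3 CCAAT matches, and Top2a 1 CHR and 3 CCAAT matches. The CHR letters were present in 24 of 34 mitosis promoters (70.6%), against 18.1% of all 27025 promoters and 12.1% of the 10504 promoters of tested genes. CCAAT letters were in 73.5% of mitosis promoters, against 37.9% of all. In 30 DNA replication promoters the shares were 13.3% for CHR and 63.3% for CCAAT. In 40 of all promoters a CHR and a CCAAT match overlapped.

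Of 38 DNA replication genes 32 fell and none rose (median −1.98). Mcm5, a subunit of the replicative helicase (chromosome 8, 75109569 to 75128439), had 7.49, 4.71 and 3.14 CPM in day 7 muscle, against 105, 83.5 and 86.3 CPM in day 3 muscle (log2 change −4.18 ± 0.29, adjusted p = 8.55e-07), and Rrm2, which makes DNA building blocks, 24.7, 18.1 and 11.7 CPM in day 7 muscle, against 200.5, 187 and 173 CPM in day 3 muscle (log2 change −3.37 ± 0.25, adjusted p = 1.24e-06). No day 7 library of either gene came near a day 3 library. Pcna, the clamp of the replication fork, averaged 20 ± 2.58 CPM at day 7 and 60.5 ± 9.91 CPM at day 3 (log2 change −1.60 ± 0.22, adjusted p = 7.89e-05). Ccnd1, the cyclin that drives entry into the cycle, fell 9.95-fold (adjusted p = 6.28e-06).

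Of 24 tested inhibitors of the cycle and p53 targets, 5 rose and 6 fell, shares near those of all genes (21.4% and 22.6%). With library totals 2 rose and 12 fell, against 1130 and 6508 of all 13848 genes. Cdkn1b, p27, had 84.8, 79 and 47.3 CPM in day 7 muscle, against 19.9, 19.97 and 19.4 CPM in day 3 muscle (log2 change 1.83 ± 0.25, adjusted p = 6.47e-05). Cdkn1c, p57, an imprinted inhibitor of myoblast division, was 2.55-fold higher (adjusted p = 0.00236). Cdkn1a, p21, which is induced as myoblasts stop dividing, had 264, 211 and 188 CPM at day 7 and 256, 270.0 and 281 CPM at day 3 and did not pass (adjusted p = 0.247). Among p53 targets Bax (−1.39) and Sesn1 (−1.53) fell, and Ccng1 rose (log2 change 2.11 ± 0.28, adjusted p = 5.72e-05).

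**Figure D4:**
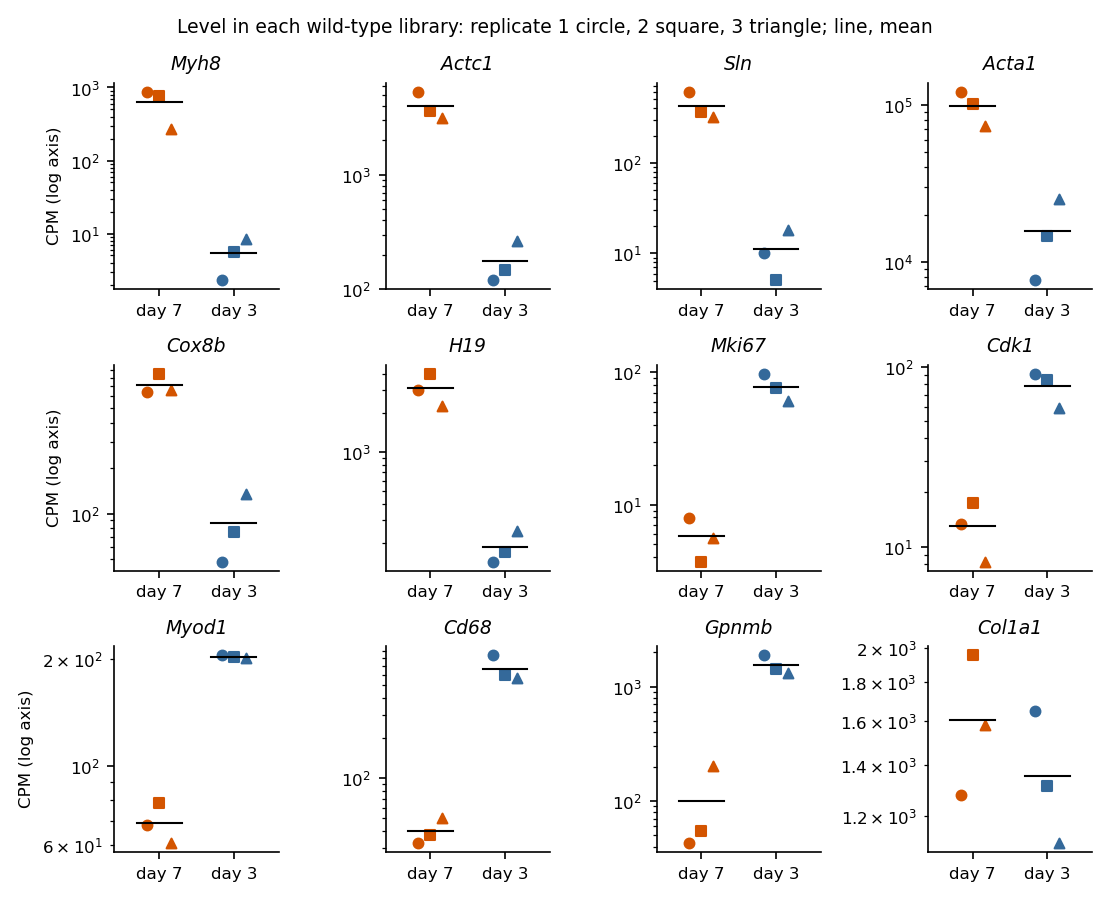
CPM in each WT library (y axis, log scale that differs between panels) of 12 genes, with day 7 left of day 3; circles, squares and triangles are replicates 1, 2 and 3 and lines are means. Days do not overlap in any panel except that of Col1a1, with 1279.5, 1953 and 1582 CPM at day 7 and 1648, 1315 and 1106 CPM at day 3.

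Of 26 tested regulators of the muscle lineage 8 rose and 7 fell with TMM (median 0.37), shares near those of all genes. With library totals 3 rose and 12 fell (median −0.44). Myod1, the regulator of committed myoblasts (chromosome 7, 46376474 to 46379099), had 68, 78.7 and 60.7 CPM in day 7 muscle, against 205, 203 and 201 CPM in day 3 muscle. The libraries of each day were close together and the days far apart (log2 change −1.55 ± 0.18, adjusted p = 2.05e-05). Myog, which acts as myoblasts stop dividing and fuse (chromosome 1, 134289989 to 134292548), had 234, 141 and 119.8 CPM in day 7 muscle, against 286, 351 and 305 CPM in day 3 muscle (log2 change −0.93 ± 0.24, adjusted p = 0.00719). Myf6, the family member of mature fibres (chromosome 10, 107492853 to 107494737), had 325, 194 and 201 CPM in day 7 muscle, against 33.2, 51.6 and 54.2 CPM in day 3 muscle (log2 change 2.38 ± 0.26, adjusted p = 1.3e-05), and its level was 234 CPM at day 1 and 96.5 CPM at day 14 (means of 3). Mef2c, a partner of these factors, was 4.33-fold higher (adjusted p = 2.37e-05), and Id1 (−1.23) and Id2 (−1.66), inhibitors of the MyoD family, fell. Pax7, the marker of satellite cells, had 5.06, 5.99 and 3.31 CPM at day 7 and 4.83, 8.35 and 5.54 CPM at day 3 and did not pass (adjusted p = 0.536). Myf5, which marks activated satellite cells and myoblasts, had 17.4, 7.56 and 5.12 CPM in day 7 muscle, against 3.51, 3.27 and 2.08 CPM in day 3 muscle and rose (log2 change 1.72 ± 0.51, adjusted p = 0.0147).

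The fusion genes did not move together, with 2 of 14 higher and 4 lower. Mymk, which codes for the fusion protein myomaker, had 88.6, 60.7 and 50.4 CPM at day 7 and 43.9, 49.6 and 52.2 CPM at day 3 and did not pass (adjusted p = 0.123). Mymx, its partner myomixer, had 11.5, 5.70 and 3.14 CPM at day 7 and 11.7, 14.7 and 13.8 CPM at day 3, and did not pass either (adjusted p = 0.0767), although no day 7 library reached a day 3 library. The levels of Mymk were 1.43 CPM at day 1 and 16.3 CPM at day 14 (means of 3). Cdh2, N-cadherin, fell 11.6-fold (log2 change −3.53 ± 0.51, adjusted p = 0.000121) and Myof, myoferlin, 6.86-fold (log2 change −2.78 ± 0.29, adjusted p = 9.92e-06). The caveolin Cav3 of mature fibre membranes rose (log2 change 1.59 ± 0.24, adjusted p = 0.000169).

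Genes for making ribosomes and the ribosomal proteins themselves fell. Of 25 ribosome biogenesis genes 17 fell and none rose (median −0.83). Ncl, nucleolin (chromosome 1, 86344719 to 86359400), had 130.3, 167 and 157 CPM in day 7 muscle, against 482, 461 and 449 CPM in day 3 muscle (log2 change −1.61 ± 0.19, adjusted p = 2.38e-05), and Myc, the growth regulator, 13.4, 6.70 and 5.62 CPM in day 7 muscle, against 73, 47.6 and 46.6 CPM in day 3 muscle (log2 change −2.73 ± 0.33, adjusted p = 3e-05). Of 38 cytosolic ribosomal protein genes 32 fell and none rose (median −0.82), and the counts of this family are uncertain where pseudogenes share reads. They summed to 8836, 10271 and 10541 CPM in day 7 muscle, against 17512, 15416 and 16898 CPM in day 3 muscle.

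The proteasome changed in its make-up. Of 29 subunits 13 rose and 4 fell with TMM, whereas 1 rose and 12 fell with library totals (median 0.41 and −0.40), so the direction of the list depends on the scaling. The 4 that fell with TMM were the interferon-inducible subunits Psmb8, Psmb9 and Psmb10 and the activator Psme1. Psmb8 (chromosome 17, 34197721 to 34201454) had 37.8, 35.8 and 23.6 CPM in day 7 muscle, against 135, 117 and 105 CPM in day 3 muscle (log2 change −1.88 ± 0.22, adjusted p = 2.35e-05). Its standard counterpart Psmb5 had 389, 398 and 373 CPM in day 7 muscle, against 144, 148 and 172 CPM in day 3 muscle (log2 change 1.32 ± 0.18, adjusted p = 7.82e-05). The count ratio of Psmb5 to Psmb8 was 10.3, 11.1 and 15.8 at day 7, against 1.07, 1.27 and 1.64 at day 3.

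Chaperones split as well, with 7 of 19 higher and 3 lower with TMM (median 0.14). With library totals 2 were higher and 11 lower (median −0.65), so the direction of this list also depends on the scaling. The small heat shock proteins of muscle Hspb6 (log2 change 2.09 ± 0.39, adjusted p = 0.000796) and Hspb8 (log2 change 1.51 ± 0.27, adjusted p = 0.00049) rose, and Hsp90aa1 (log2 change −2.33 ± 0.20, adjusted p = 2.57e-06) and Hspa5, the chaperone of the endoplasmic reticulum (log2 change −1.39 ± 0.24, adjusted p = 0.000427), fell. Of 22 stress response genes 2 rose and 10 fell. The metallothionein Mt1, which binds zinc, had 85, 71.7 and 67.9 CPM in day 7 muscle, against 364, 255 and 483 CPM in day 3 muscle (log2 change −2.29 ± 0.24, adjusted p = 1.07e-05), and at day 1 it stood at 1400.0 CPM. Psat1, an enzyme of serine synthesis, fell 10.5-fold (adjusted p = 1.42e-06) and the folate enzyme Mthfd2 3.31-fold (adjusted p = 3.6e-05). Among 17 immediate early genes 8 fell and none rose, with Fos at 5.87, 2.71 and 4.13 CPM in day 7 muscle, against 22.9, 23.4 and 30.7 CPM in day 3 muscle (log2 change −2.61 ± 0.35, adjusted p = 5.86e-05) and Egr1 3.87-fold lower (adjusted p = 0.000114).

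The macrophage genes fell without exception in the general list. All 16 tested genes fell (median −3.33), and no day overlapped. They summed to 997, 1115 and 1464 CPM in day 7 muscle, against 14689.5, 11423 and 10412 CPM in day 3 muscle, or 0.070, 0.084 and 0.117% of all counts at day 7, against 2.06, 1.51 and 1.26% at day 3. Cd68, a lysosomal protein of macrophages (chromosome 11, 69664213 to 69666153), had 32.6, 37.4 and 50.2 CPM in day 7 muscle, against 835, 595 and 566 CPM in day 3 muscle (log2 change −4.05 ± 0.26, adjusted p = 5.45e-07). Adgre1, the F4/80 antigen (chromosome 17, 57358691 to 57483527), had 18.6, 27.2 and 38.7 CPM in day 7 muscle, against 369, 249 and 232 CPM in day 3 muscle (log2 change −3.33 ± 0.28, adjusted p = 2.56e-06). Csf1r, the receptor for their growth factor, fell 9.77-fold (adjusted p = 3.52e-06) and Fcgr1, an antibody receptor, 23.4-fold (adjusted p = 3.46e-07). Lyz2, lysozyme, had 329, 453 and 477 CPM in day 7 muscle, against 6111, 4481 and 4171 CPM in day 3 muscle.

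Inflammatory monocyte genes and those of repair macrophages fell alike. Of 20 inflammatory genes 15 fell and none rose (median −2.18), and of 23 repair macrophage genes 19 fell and 1 rose (median −2.44). Ly6c2, the surface marker of inflammatory monocytes, had 1.01, 1.14 and 1.65 CPM in day 7 muscle, against 31.3, 23.1 and 16.6 CPM in day 3 muscle (log2 change −4.20 ± 0.41, adjusted p = 5.93e-06), and Ccr2, the receptor that brings them from blood, fell 7.80-fold (adjusted p = 2.56e-06). Trem2, a lipid sensor of repair macrophages (chromosome 17, 48346401 to 48354147), had 13.6, 16.1 and 34.5 CPM in day 7 muscle, against 364, 316 and 303 CPM in day 3 muscle (log2 change −3.93 ± 0.32, adjusted p = 2.28e-06). Cx3cr1, a chemokine receptor of resident and repair macrophages, fell 17.6-fold (adjusted p = 6.49e-06), and its levels were 4.90 CPM at day 1 and 1.22 CPM at day 14 (means of 3). Gpnmb, a glycoprotein of lipid-laden macrophages (chromosome 6, 49036546 to 49070929), had 42.9, 54.5 and 201 CPM in day 7 muscle, against 1874, 1434 and 1319 CPM in day 3 muscle (log2 change −3.96 ± 0.57, adjusted p = 0.000409), and Spp1, osteopontin, 43.7, 37.6 and 328 CPM in day 7 muscle, against 3453, 2178 and 2474 CPM in day 3 muscle (log2 change −4.31 ± 0.84, adjusted p = 0.00297). In both genes replicate 3 was the highest of day 7 and still below every day 3 library. The member that rose, the transcription factor Maf, rose by 0.81 with TMM and lay at −0.01 with library totals. Igf1, a growth factor made by macrophages and fibres, had 61.9, 73.4 and 45.1 CPM at day 7 and 89.7, 84.4 and 63.9 CPM at day 3 and did not pass (adjusted p = 0.162).

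Of 24 lysosome genes 18 fell and 1 rose, and macrophages are rich in lysosomes, whose part in this was not tested. Ctsb, cathepsin B (chromosome 14, 63122462 to 63145923), had 997, 919 and 1001 CPM in day 7 muscle, against 8712, 6446 and 5861 CPM in day 3 muscle (log2 change −2.85 ± 0.31, adjusted p = 1.27e-05), and Grn, progranulin, fell 13.4-fold (adjusted p = 8.55e-07). Genes of heme and iron handling fell in 6 of 12 cases and rose in 1. Hmox1, which breaks down heme (chromosome 8, 75093621 to 75100589), had 15.2, 11.7 and 19.2 CPM in day 7 muscle, against 227, 196 and 145 CPM in day 3 muscle (log2 change −3.63 ± 0.25, adjusted p = 7.7e-07), and Ftl1, the ferritin light chain, 362, 485 and 407 CPM in day 7 muscle, against 4003, 3064 and 3045 CPM in day 3 muscle (log2 change −3.01 ± 0.28, adjusted p = 4.18e-06). The one that rose, Tfrc, the transferrin receptor that takes up iron (chromosome 16, 32608920 to 32632794), had 264, 304 and 249 CPM in day 7 muscle, against 41.1, 56.8 and 52.2 CPM in day 3 muscle (log2 change 2.45 ± 0.20, adjusted p = 1.84e-06). Its days did not overlap, and its levels were 41.8 CPM at day 1 and 344 CPM at day 14 (means of 3).

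Among chemokines 12 of 18 tested fell and 1 rose. Ccl2 (chromosome 11, 82035571 to 82037453) had 3.85, 3.99 and 1.49 CPM in day 7 muscle, against 144, 88.6 and 69.7 CPM in day 3 muscle (log2 change −5.02 ± 0.38, adjusted p = 1.42e-06), and Ccl7, which binds the same receptor, fell 29.6-fold (adjusted p = 1.42e-06). Pf4, platelet factor 4, which macrophages also make, had 15.4, 31.8 and 20.5 CPM in day 7 muscle, against 479, 389 and 349 CPM in day 3 muscle (log2 change −4.16 ± 0.28, adjusted p = 7.13e-07). The exception was Ccl25 (0.90, adjusted p = 0.0322). In complement, 3 of 17 rose and 4 fell. The receptors C3ar1 (log2 change −3.59 ± 0.24, adjusted p = 7.13e-07) and C5ar1 (log2 change −3.75 ± 0.32, adjusted p = 2.59e-06) and the stabiliser Cfp (log2 change −3.30 ± 0.30, adjusted p = 3.6e-06) fell with Cfb, and Cfd and the membrane protectors Cd55 and Cd59a rose. Cfb reached 10 counts only in day 3 libraries, so it entered the test through the group in which it was high. Cd55 had 179, 145 and 91.7 CPM in day 7 muscle, against 16.5, 12.7 and 20.8 CPM in day 3 muscle (log2 change 3.06 ± 0.28, adjusted p = 3.6e-06), and Cd59a was 8.14-fold higher (adjusted p = 1.5e-05).

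Other immune cells left few counts. Of 15 neutrophil genes 6 were tested and 3 fell, among them Lcn2, with 0, 0.570 and 1.49 CPM in day 7 muscle, against 16.8, 28.1 and 29.1 CPM in day 3 muscle and a mean of 313 CPM at day 1. Ly6g, the defining neutrophil marker, was at 0 counts in all 6 libraries. The other untested members of this list went both ways in raw counts summed per day. These sums are not scaled, and every day 7 library held more counts in total than any day 3 library. Day 7 held more for Ngp (36 against 4), Camp (24 against 3), Ltf (27 against 7), Elane (19 against 3), Mpo (13 against 0) and Retnlg (10 against 7). It held fewer for S100a9 (35 against 57) and Cxcr2 (5 against 12). Single libraries carried much of these sums. At day 7 Mpo had 0, 13 and 0 counts, Ngp 8, 0 and 28, Camp 0, 9 and 15, Elane 0, 9 and 10, and Retnlg 8, 1 and 1. At day 3 S100a9 had 47, 3 and 7 counts. No direction is drawn from them. The lists of αβ T and natural killer cells had 6 of 20 genes tested, of which 1, the interleukin 7 receptor Il7r, fell (log2 change −2.91 ± 0.74, adjusted p = 0.00889). Cd3e had 5, 3 and 30 counts at day 7, against 4, 3 and 23 at day 3, and Ifng was at 0 in all. Of the γδ T cell list, 4 of 14 were tested. Trdc, the constant part of the δ receptor chain, had 2, 1 and 8 counts at day 7, against 5, 4 and 5 at day 3, and Il17a 1, 0 and 0 at day 7, against 0 in each library at day 3. A count of 0 allows up to 3 counts per library, and such limits cover counting error only. Il17ra, the receptor chain for interleukin 17, which many cells carry, fell 8.27-fold (log2 change −3.05 ± 0.29, adjusted p = 5.21e-06). Of 10 B and plasma cell genes 2 were tested, and both fell. MHC class II genes, which macrophages and dendritic cells use to present antigen, and related antigen presentation genes were lower in 9 of 17 cases and higher in none (median −1.01). H2-Aa had 198, 239.7 and 138 CPM in day 7 muscle, against 396, 414 and 343 CPM in day 3 muscle (log2 change −1.002 ± 0.22, adjusted p = 0.00257).

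Interferon-stimulated genes fell in WT muscle, with 21 of 26 lower and none higher (median −1.70), or 17 lower without the pair of libraries named above. 2 of their promoters are shown because such genes are known for the interferon-stimulated response element (ISRE), searched here as GAAANNGAAA on both strands and set in capitals (130 bases before the start, RefSeq, GRCm38.p6). Isg15 lies at chr4:156200819-156200948 (minus strand) and Rsad2 at chr12:26456453-26456582 (minus strand).
Isg15: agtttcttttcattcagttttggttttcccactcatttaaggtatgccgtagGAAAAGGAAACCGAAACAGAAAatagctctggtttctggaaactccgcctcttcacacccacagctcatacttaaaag
Rsad2: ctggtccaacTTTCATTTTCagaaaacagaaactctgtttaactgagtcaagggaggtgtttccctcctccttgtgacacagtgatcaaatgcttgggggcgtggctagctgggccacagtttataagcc
Isg15 held 3 overlapping matches on the gene's strand and Rsad2 1 on the other strand. The letters were present in 14 of 20 promoters of the list (70.0%), against 3.49% of all 27025. Isg15, an ubiquitin-like protein (chromosome 4, 156199424 to 156200818), had 9.51, 8.70 and 6.78 CPM in day 7 muscle, against 26.5, 47.2 and 36.7 CPM in day 3 muscle (log2 change −2.14 ± 0.29, adjusted p = 7.06e-05). Mx1, an antiviral GTPase, had 2.43, 3.14 and 2.15 CPM in day 7 muscle, against 35.02, 51.9 and 35.1 CPM in day 3 muscle (log2 change −3.96 ± 0.31, adjusted p = 1.6e-06), and the RNA sensors Oas1a (10.02-fold) and Oasl2 (5.22-fold) were lower too.

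The same step in DTR muscle was set beside that of WT muscle, in a fit over 11 libraries. In DTR muscle 2993 genes rose (21.6%) and 3049 fell (22%). Of the genes that rose in WT muscle 74.0% also rose in DTR muscle, which were 73.3% of those that rose in DTR muscle, and 69.1% of those that fell in WT muscle fell in DTR muscle, 71.1% of the DTR falls. Only 23 genes were called in opposite directions. In the test of the difference between the steps, 77 of 13848 genes (0.556%) passed, 43 with the more positive step in WT muscle and 34 with the more negative, and 2016 had an unadjusted p under 0.05. The number moved from 0 without day 3 DTR replicate 3 to 222 without day 7 DTR replicate 1, and was 305 with DESeq2 and 124 with library totals. It was 1 without day 3 WT replicate 2, 2 without day 7 DTR replicate 2, 6 without day 3 DTR replicate 2, 15 without day 7 WT replicate 3, 27 without day 3 WT replicate 1, 30 without day 3 DTR replicate 1, 42 without day 7 WT replicate 2 and 120 without day 7 WT replicate 1. With 2 libraries in the day 7 DTR group, these calls rest on few samples.

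Of 26 interferon-stimulated genes, 11 were among the 77: Rsad2, Rtp4, Usp18, Stat2, Xaf1, Oas1a, Oasl2, Mx1, Bst2, Irf7 and Ifit3, all with the more negative step in WT muscle. Of these, Rsad2, Rtp4, Usp18, Stat2, Xaf1 and Bst2 were named after their values were seen. The list summed to 644, 518 and 364 CPM in WT muscle at day 7, 1331, 1728 and 1259 CPM in WT muscle at day 3, 824 and 1031 CPM in DTR muscle at day 7 and 992, 765 and 706 CPM in DTR muscle at day 3. WT muscle thus had its days apart, and the DTR days overlapped. General macrophage genes summed to 987, 1105 and 1450.0 CPM in WT muscle at day 7, 14552, 11317 and 10315 CPM in WT muscle at day 3, 953 and 3139 CPM in DTR muscle at day 7 and 10019, 9416 and 11416 CPM in DTR muscle at day 3, and their part in these values was not tested. The median step of the interferon list was −1.70 in WT muscle and 0.19 in DTR muscle. Rsad2, which codes for viperin and was chosen after its values were seen (chromosome 12, 26442746 to 26456452), had 26.7, 22.2 and 22.9 CPM in WT muscle at day 7, 69.6, 109 and 81.2 CPM in WT muscle at day 3, 50.5 and 50.1 CPM in DTR muscle at day 7, and 50.9, 31.1 and 45.3 CPM in DTR muscle at day 3. The difference between its steps was −2.10 ± 0.32, adjusted p = 0.0131. Irf7, a regulator of interferon genes, had 31.1, 30.9 and 24.2 CPM in WT muscle at day 7, 128, 147 and 97.4 CPM in WT muscle at day 3, 42.01 and 47.9 CPM in DTR muscle at day 7, and 87.9, 51.5 and 58.2 CPM in DTR muscle at day 3 (difference −1.56 ± 0.33, adjusted p = 0.04). Isg15 fell in both genotypes, and the difference between its steps did not pass (−0.41 ± 0.48, adjusted p = 0.729).

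**Figure D5:**
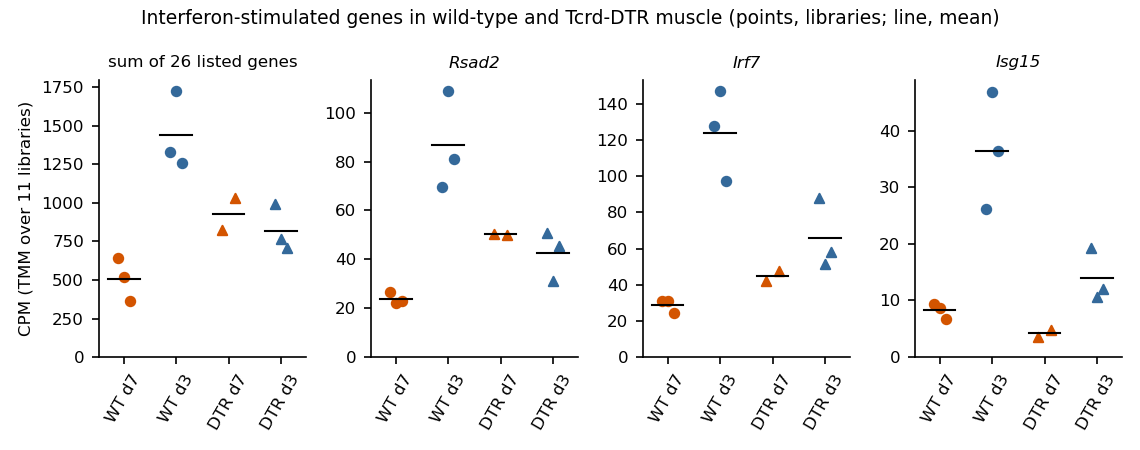
CPM (y axis, TMM scaling over 11 libraries) of the 26 listed interferon-stimulated genes together, and of Rsad2, Irf7 and Isg15, in WT muscle at day 7 and day 3 and in DTR muscle at day 7 and day 3; points are libraries and lines are means. The sum was 364 to 644 CPM in WT muscle at day 7 and 1259 to 1728 CPM at day 3, and 824 and 1031 CPM in DTR muscle at day 7 and 706 to 992 CPM at day 3.

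A few muscle genes also differed in their step. Myl4 had 483, 410.4 and 383 CPM in WT muscle at day 7, 61.6, 67.99 and 85.5 CPM in WT muscle at day 3, 586 and 1131 CPM in DTR muscle at day 7, and 41.04, 37.6 and 37.5 CPM in DTR muscle at day 3. Both genotypes gained Myl4, DTR muscle by more (difference of the steps −1.90 ± 0.33, adjusted p = 0.0214). Tnni1 followed the same order (difference −1.88 ± 0.39, adjusted p = 0.04). For Mcm5 the fall was larger in WT muscle (difference −2.11 ± 0.38, adjusted p = 0.0221).

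Of 20 collagen genes tested, 1 rose and 1 fell (median −0.00, or −0.81 with library totals, where 12 fell). Col1a1, the chain of collagen type I (chromosome 11, 94936224 to 94953042), had 1279.5, 1953 and 1582 CPM in day 7 muscle, against 1648, 1315 and 1106 CPM in day 3 muscle, and the days overlapped (log2 change 0.24 ± 0.26, adjusted p = 0.49). Col3a1, type III, had 1954, 2236 and 1291 CPM at day 7 and 1589, 1278 and 1155 CPM at day 3 (adjusted p = 0.208). Of 34 genes of matrix remodelling, 5 rose and 12 fell. Timp1, an inhibitor of matrix proteases, had 26.5, 23.1 and 24.1 CPM in day 7 muscle, against 119, 74.1 and 99.5 CPM in day 3 muscle (log2 change −1.99 ± 0.22, adjusted p = 1.48e-05), and the crosslinking enzyme Lox fell 2.85-fold (adjusted p = 0.00011). Mmp13, a collagenase, had 32.8, 25.95 and 18.8 CPM in day 7 muscle, against 9.99, 6.35 and 4.39 CPM in day 3 muscle and rose (log2 change 1.86 ± 0.35, adjusted p = 0.000804). Lum, a small proteoglycan, was 2.09-fold higher (adjusted p = 0.00434).

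The connective tissue cells left mixed values. Of 17 genes of fibro-adipogenic progenitors 2 rose and 4 fell. Pdgfra, their defining receptor, had 19.4, 22.8 and 22.3 CPM in day 7 muscle, against 47.9, 48.3 and 33.01 CPM in day 3 muscle (log2 change −1.002 ± 0.23, adjusted p = 0.00321), and Vim, vimentin, which many migrating cells including macrophages make, fell 8.18-fold (log2 change −3.03 ± 0.28, adjusted p = 3.7e-06). Of 11 tendon and cartilage genes 3 rose and 1 fell, with Cilp at 474, 387 and 237 CPM in day 7 muscle, against 133, 101 and 97.2 CPM in day 3 muscle (log2 change 1.73 ± 0.25, adjusted p = 0.000136), and Prg4, lubricin, 6.73-fold lower (adjusted p = 0.000281).

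Vessel genes changed in part. Of 20 endothelial genes 3 rose and 6 fell. Kdr, the main receptor for vascular endothelial growth factor, had 44.7, 44.5 and 25.9 CPM in day 7 muscle, against 16.03, 22.7 and 18.2 CPM in day 3 muscle (log2 change 1.02 ± 0.27, adjusted p = 0.00746), while Pecam1 (106, 106 and 72.1 CPM at day 7 and 156, 122 and 109 CPM at day 3) and Cdh5 (33.6, 45.8 and 25.6 CPM at day 7 and 23.4, 27.4 and 35.1 CPM at day 3), which join endothelial cells, did not pass. Vwf (−1.43) and Eng (−1.14) fell. Of 12 genes of pericytes and smooth muscle 4 rose, one of which, Des, is also made by fibres, and Rgs5, a pericyte gene, was 1.91-fold higher (adjusted p = 0.00836). The median of 8 nerve and Schwann cell genes was −0.43. Among 13 adipocyte and lipid droplet genes 4 rose and 2 fell. Plin5, the droplet coat protein of oxidative muscle, had 36.6, 40.5 and 36.7 CPM in day 7 muscle, against 5.38, 4.72 and 7.39 CPM in day 3 muscle (log2 change 2.72 ± 0.27, adjusted p = 7.23e-06), and Plin2, the droplet protein of macrophages and young cells, 129, 139.6 and 128 CPM in day 7 muscle, against 571, 453 and 487 CPM in day 3 muscle (log2 change −1.93 ± 0.19, adjusted p = 7.22e-06). Of 19 genes of cholesterol synthesis 6 fell and none rose.

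Imprinted growth genes, which are active before birth and in regenerating muscle, rose in 12 of 16 cases and none fell with TMM (median 1.51). With library totals 5 rose and 2 fell (median 0.69). H19, an imprinted non-coding RNA (chromosome 7, 142575529 to 142578143), had 3033, 4000.3 and 2269.8 CPM in day 7 muscle, against 144, 169.6 and 246 CPM in day 3 muscle (log2 change 4.06 ± 0.33, adjusted p = 1.95e-06), and its levels were 102 CPM at day 1 and 726 CPM at day 14 (means of 3). Meg3, a non-coding RNA of another imprinted cluster (chromosome 12, 109541001 to 109571726), had 469.5, 518 and 207 CPM in day 7 muscle, against 42.4, 32.9 and 48.9 CPM in day 3 muscle (log2 change 3.27 ± 0.32, adjusted p = 8.79e-06). Igf2, the growth factor beside H19, was low, with 4.65, 8.56 and 8.10 CPM in day 7 muscle, against 0.329, 2.54 and 1.62 CPM in day 3 muscle (log2 change 2.31 ± 0.67, adjusted p = 0.0127). Rian, from the cluster of Meg3, was 3.17-fold higher (adjusted p = 5.32e-05).

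Among growth signals, 5 of 40 rose and 12 fell. Mstn, myostatin, which limits muscle size, had 41.9, 13.5 and 18.2 CPM in day 7 muscle, against 1.43, 7.81 and 7.16 CPM in day 3 muscle (log2 change 2.22 ± 0.59, adjusted p = 0.0105), and Gdf11, its close relative, was 3.36-fold higher (adjusted p = 0.00148). Igfbp5, which binds insulin-like growth factors and rises as myoblasts differentiate, had 343, 315 and 274 CPM in day 7 muscle, against 91.99, 104 and 125 CPM in day 3 muscle (log2 change 1.54 ± 0.19, adjusted p = 4.17e-05). Tgfbi, a matrix protein induced by TGF-β, fell 11.2-fold (adjusted p = 1.42e-06), and Notch1 fell 3.57-fold (adjusted p = 0.000218). Of 10 secreted and micropeptide genes of muscle 5 rose and 1 fell, with Fndc5, the precursor of irisin, at 67.4, 62.9 and 50.6 CPM in day 7 muscle, against 5.71, 9.80 and 11.3 CPM in day 3 muscle (log2 change 2.78 ± 0.28, adjusted p = 7.64e-06). In protein breakdown and autophagy 5 of 16 rose and 5 fell. Map1lc3a, an autophagosome protein, was 11.5-fold higher (log2 change 3.53 ± 0.31, adjusted p = 3.18e-06) and Bnip3, a mitophagy receptor, 4.84-fold higher (adjusted p = 1.11e-05), whereas Fbxo32, atrogin-1, fell 1.53-fold (adjusted p = 0.0105).

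Levels on the outer days place this step in the course. The adult sarcomere list summed to 213617, 157523 and 204369 CPM at day 1 and to 369885, 369094 and 395319 CPM at day 14, so that day 3 held the lowest level of the 4 days. The day 7 sums (359716, 331373 and 292365 CPM) lay below those of day 14. The 2 days were scaled in separate sets of libraries, so the order of the closest values is uncertain. General macrophage genes summed to 1891, 3689 and 2916 CPM at day 1 and to 292, 249 and 239 CPM at day 14, both below day 3. The embryonic sarcomere list was highest at day 7, with 2745, 2607 and 2334 CPM at day 1 and 3181, 3910.1 and 3568 CPM at day 14, against 9096, 6959 and 5232 CPM at day 7.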

How the data were processed

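RNA was measured by sequencing of polyadenylated RNA from whole muscle. The values are read counts per gene symbol as the authors deposited them, in 1 table of 55011 symbols and 39 libraries. Reads were handled with STAR 2.7.3a and featureCounts (Subread 2.0.0) on mm10, per the submitters' processing notes. No label states the kit, whether strand was used, the annotation or how reads with several positions were treated (not given in the sources used here), so genes that overlap, lie antisense or have near-identical copies are uncertain. Positions come from a GENCODE annotation of the mm10 assembly and promoter sequences from RefSeq (GRCm38.p6).

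Day 7 was compared with day 3 in 3 WT libraries each with edgeR 4.0.16 (R 4.3.3): TMM scaling, the robust quasi-likelihood F-test, genes with at least 10 counts in at least 3 libraries, and Benjamini-Hochberg adjustment over all 13848 genes at a threshold of 0.05. The standard error is the log2 change divided by the root of F. The difference between the WT and DTR steps was the interaction in 1 fit over 11 libraries. Levels at day 1 and day 14 are from a scaling over 12 WT libraries, brought to the scale of the 6 libraries by the constant 1.083. The members, lists and pairs were chosen with earlier results of these data known. Named were, per direction, the 12 genes with the largest fold among those of at least 20 CPM with separate groups, up to 4 members per list and direction with the smallest p, and genes marked as defining each list; others are said to be chosen after their values were seen. A test on counts drawn with known changes recovered 29 of 100 2-fold and 79 of 100 4-fold changes among 13848 genes, with 4 false calls. No other genes were changed in the drawn counts, whereas 6102 genes passed in the data. The adjustment therefore differs between them, and these rates do not give the sensitivity of the test here. Replicates of a group differed by more than sampling noise. Alternatives were other scalings, filters, sample sets, a replicate block, a 2-fold minimum, leaving out each library and DESeq2 1.42.0. A few named results are not reported here.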

Additional observations from a re-analysis of the deposited data

Results flagged for a closer look

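For these genes the day 7 minus day 3 step differed between WT and DTR muscle in the interaction test of edgeR (adjusted p under 0.05), given as the WT step minus the DTR step on the log2 scale. Among interferon-stimulated genes the difference was −2.79 for Mx1, −2.47 for Ifit3, −2.43 for Oasl2, −2.24 for Oas1a, −2.23 for Rtp4, −2.21 for Usp18, −2.10 for Rsad2, −1.97 for Xaf1, −1.96 for Stat2, −1.58 for Bst2 and −1.56 for Irf7. It was −1.33 for Psmb8, a proteasome subunit that interferon induces. For the fibre genes Myl4 and Tnni1, which rose in both genotypes, it was −1.90 and −1.88. It was −2.11 for Mcm5, which fell in both, and 2.31 for Plin5. The genes given here are only those named in the text and do not stand for the whole set. Among all 77 step differences 43 were positive and 34 negative. The smallest p of the interaction test was that of Pam (2.17 ± 0.29, adjusted p = 0.00862). Pam was chosen after its values were seen and lies outside the 204 named genes counted below. These calls rest on 2 DTR libraries at day 7.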

How the results depend on the processing

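Of 6102 changed genes, 2966 rose and 3136 fell. A 2-fold minimum left 2204, of which 974 rose and 1230 fell. Library totals gave 1130 and 6508, which puts 14.8% of changed genes on the rising side, against 48.6% with TMM. Without a filter on low counts, 38.8% of changed genes rose (2132 and 3360 of 43402 tested). Leaving out each library gave 2339 to 2897 rises and 2624 to 3084 falls. DESeq2, other size factors, filterByExpr, wider fits and a replicate block kept the counts within 1.5 times. Same-numbered day 7 and day 3 libraries did not deviate together (r = −0.0879, −0.0735 and 0.0601 over 10860 genes), so the numbers were not taken as pairs. With the replicate block 2808 rose and 3037 fell.

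The 77 step differences became 305 with DESeq2, 124 with library totals and 1 with the replicate block, and 0 to 222 when each library was left out. With library totals the log2 change turned to −0.28 for Tnnt2, −0.50 for Cdh5, −0.57 for Col1a1, −0.38 for Col3a1, −0.36 for Mymk, −0.0038 for Hk2 and −0.012 for Maf. Pax7, at −0.58 to −0.16 when 1 library was left out, turned to 0.10 without day 7 replicate 3 and day 3 replicate 2. The cause was not tested. The log2 changes of named genes that lost their call were as follows. Without day 3 replicate 1, Ccl25 (0.73), Cfb (−1.70), Cpt1b (1.35), Spp1 (−4.09), Tnnt2 (0.47), Utrn (−0.66) no longer passed. Without day 3 replicate 2, Ccl25 (0.78), Cfb (−1.96), Cfd (1.70), Cpt1b (1.58), Rgs5 (0.73), Ryr1 (1.38), Tnnt2 (0.52), Ttn (1.12) no longer passed. Without day 3 replicate 3, Cfd (1.87), Myf5 (1.503), Tnnt2 (0.51) no longer passed. Without day 7 replicate 1, Ccl25 (0.89), Myf5 (1.08), Tnnt2 (0.44), Ttn (1.13) no longer passed. Without day 7 replicate 2, Ccl25 (0.85), Cfb (−1.93), Cfd (1.62), Igf2 (2.14), Rgs5 (0.72), Tnnt2 (0.55), Ttn (1.21), Utrn (−0.63) no longer passed. Without day 7 replicate 3, Cfb (−1.75), Cfd (2.10), Ttn (1.08) no longer passed. Without day 7 replicate 3 and day 3 replicate 2, Acta1 (2.76), Atp2a1 (2.01), Ccl25 (0.89), Cfb (−1.82), Cfd (1.70), Chrne (3.36), Ckm (1.96), Cox6a1 (−0.55), Cpt1b (1.64), Des (1.45), Fbxo32 (−0.59), H2-Aa (−0.76), Hk2 (0.80), Myog (−0.66), Psme1 (−0.72), Ryr1 (1.44), Slc2a4 (1.09), Tnnt2 (0.64), Ttn (1.10) no longer passed. With library totals, Ccl25 (0.11), Cdkn1c (0.53), Cfd (1.31), Cpt1b (1.01), Igf2 (1.53), Kdr (0.20), Lum (0.22), Myf5 (0.87), Rgs5 (0.11), Ryr1 (0.69), Slc2a4 (0.38), Tfam (0.48), Ttn (0.38) no longer passed. Without a filter, Ccl25 (0.73), Cfb (−2.04), Cfd (1.89), Chil3 (−5.72), Maf (0.63), Spp1 (−4.54), Tnnt2 (0.36) no longer passed. With the replicate block, Cfb (−1.83), Cfd (2.32), Mstn (2.17), Tnnt2 (0.53) no longer passed. In the fit over 12 libraries Tnnt2 (0.54) no longer passed, and over 23 libraries Fbxo32 (−0.64), Tnnt2 (0.51). A 2-fold minimum left 45 named calls short. Of 204 named genes 193 passed, and 143 passed under every alternative run. Calls gained when libraries were left out were those of Chrng without day 7 replicate 1 (−0.73), Mymk without day 7 replicate 3 (0.62), Mymx without day 7 replicate 1 (−1.59), Pecam1 without day 3 replicate 3 (−0.59). Counts drawn at the depth and spread of these libraries gave back 29 of 100 2-fold changes among 13848 genes. Far fewer genes were changed there than passed in the data, so this rate does not give the sensitivity of the test.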

Other observations

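Gene families grouped by symbol, chosen after their values were seen, extend the description. Of 49 large and 29 small subunit genes of the mitochondrial ribosome (Mrpl and Mrps), 43 and 26 rose and none fell (medians 1.07 and 1.07, or 0.27 and 0.27 with library totals), while most cytosolic ribosomal protein genes fell. Of 11 genes of coenzyme Q synthesis (Coq) 8 rose and 1 fell. Of 15 inner membrane import genes (Timm) 11 rose, with a median of 0.75 with TMM and −0.06 with library totals.

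Several families had more falls than rises. Toll-like receptor genes (Tlr) fell in 8 of 11 cases and rose in 1 (median −2.34), the 4 Fc receptor genes (Fcgr) all fell (median −3.05), and C-type lectin genes (Clec) fell in 10 of 19 cases. Caspase genes fell in 6 of 10 cases, and 8 of 15 small nucleolar RNA host genes (Snhg) fell (median −0.99).

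Among 206 long intergenic RNAs 65 rose and 17 fell, whereas 2668 of 12550 protein-coding genes rose and 3008 fell. Of 194 antisense genes 41 rose and 13 fell, and of 161 processed pseudogenes 35 rose and 12 fell. Reads of these classes can be shared with other genes. The day 7 libraries were also deeper, and day 7 replicate 3 had counts in 34392 genes. Of all members, 260 reached 10 counts only at day 7, of which 173 rose, and 182 only at day 3, of which 151 fell. The part of depth and of that library in the values of these classes was not tested.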
